A study of Homo sapiens with 9 samples.

Results

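Caveolae are flask-shaped pits of the plasma membrane, and the genes that encode their coat were followed through RNA sequencing of cells labelled MDA-MB-231. The group held 8 of the 60708 genes counted. It comprised the caveolins *CAV1*, *CAV2* and *CAV3*, the cavins *CAVIN1*, *CAVIN2* and *CAVIN3*, and the neck proteins *EHD2* and *PACSIN2*, each found by its gene symbol in all 9 libraries. MDA-MB-231 is an established line of triple-negative breast cancer cells of basal, mesenchymal character. The 3 groups were WT cells and the *SNAI1*-KO clones CS16 and CS19, with 3 libraries each, all from untreated cells kept in DMEM with fetal bovine serum. Each clone was grown from 1 cell after transfection with Cas9, repair-template plasmids and a pool of 3 guide RNAs against *SNAI1* (one each in exon 1 and exon 2, the last where exon 2 meets intron 2) and puromycin selection, so each is a line of its own. No clone that went through the same steps with an intact *SNAI1* was analysed here, and the knockout cannot be told apart from the history of a clone or from any other difference between the WT cells and the cells that gave the clones. *SNAI1* is a transcriptional repressor known for driving the epithelial-mesenchymal transition. The labels do not say that replicates were separate cultures, so p-values measure only the spread among these libraries.

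Caveolins insert into the inner leaflet of the membrane as a hairpin and assemble into oligomers. Cavins are soluble proteins that coat these oligomers from the cytoplasm, and *CAVIN1* is required for the pits to form in most cells. *EHD2*, an ATPase, forms a ring at the neck, and *PACSIN2*, an F-BAR protein, bends membrane there. *CAV1* and *CAV2* are broadly made together, while *CAV3* is the muscle caveolin. Caveolae are abundant in endothelial, fat and muscle cells, and *CAV1* is known as a gene of basal and mesenchymal breast cancer lines.

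Some properties of the libraries bear on every result below. The libraries held 19527195 to 28627777 counted read pairs, and 3 counts, taken as the detection floor, corresponded to 0.0982 to 0.171 CPM (counts scaled to library size with TMM factors). *SNAI1* itself was not lower in the libraries labelled *SNAI1*-KO, at 0.789, 2.17 and 1.08 CPM for WT, 1.27, 1.91 and 1.95 for CS16 and 2.59, 4.08 and 3.08 for CS19, where the count covers the whole gene. *CDKN2A*, *CDKN2B* and *MTAP*, neighbours on chromosome 9 known to be deleted in MDA-MB-231, had 0 counts in every WT library and summed to between 164 and 182 CPM in every library of both clones. DNA lost from a cell is not regained by its descendants, and whether the WT libraries and the clones came from the same cells was not tested. The differences below are therefore those between libraries so labelled. WT replicate 2 (WT-2) stood apart from the other WT libraries: the chi-square per degree of freedom over genes was 188 and 230 against WT-1 and WT-3, and 14.6 between those. Across genes, its deviation in log2 CPM from the mean of WT-1 and WT-3 rose with the GC content of the transcript, from a median of -0.82 among the 3918 genes with the lowest GC content (25.7 to 40.5%) to 0.99 among the 3918 with the highest (57.2 to 75.6%). Its part in the results was not tested, and results are given with and without it. Of 11 basal and mesenchymal breast markers, all 11 were lower in every clone library than in every WT library, and their sum was 10210 to 12820 CPM for WT libraries, 526.9 to 548.6 for CS16 and 506.7 to 541.2 for CS19. In every clone library 4 of them (*CD44*, *AXL*, *TGFBI* and *S100A6*) were below 1 CPM. Of 11 luminal markers, 8 were lower in every clone library than in every WT library and 2 (*FOXA1* and *XBP1*) were higher. The luminal sum was 1563 to 2216 CPM for WT, 229 to 258 for CS16 and 253 to 274 for CS19. The share of all genes that separate WT from clone libraries in this way was not counted. By an adjusted p below 0.05 in edgeR's quasi-likelihood test, 32.6% of all genes tested were lower in *SNAI1*-KO libraries and 31.1% higher. The part of these markers in the results was not tested.

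The sequences before the start sites of 4 members are shown because these genes span the patterns seen. *CAV1* and *CAV2* were high in WT and lower in the clones, *CAVIN2* was at or near the floor in the clones and *CAV3* was higher there. Each run is the 250 bases before the most upstream RefSeq start (GRCh38.p14), 5′ to 3′ on the gene's strand, with CG dinucleotides, the sites of DNA methylation, in capitals. The window of *CAV1* is chr7:116524759-116525008 (plus strand), of *CAV2* chr7:116499488-116499737 (plus strand), of *CAVIN2* chr2:191847089-191847338 (minus strand) and of *CAV3* chr3:8733552-8733801 (plus strand).
CAV1: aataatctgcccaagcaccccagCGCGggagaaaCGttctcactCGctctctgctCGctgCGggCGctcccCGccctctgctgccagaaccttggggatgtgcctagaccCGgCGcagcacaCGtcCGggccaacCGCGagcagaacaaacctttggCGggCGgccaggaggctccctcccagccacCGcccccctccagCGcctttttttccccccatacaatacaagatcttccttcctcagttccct
CAV2: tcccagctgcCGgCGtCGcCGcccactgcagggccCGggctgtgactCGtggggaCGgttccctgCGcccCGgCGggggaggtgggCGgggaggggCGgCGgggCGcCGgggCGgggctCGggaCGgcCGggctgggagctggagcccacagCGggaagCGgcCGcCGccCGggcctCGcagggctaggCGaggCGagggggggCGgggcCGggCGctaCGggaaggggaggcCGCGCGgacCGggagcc
CAVIN2: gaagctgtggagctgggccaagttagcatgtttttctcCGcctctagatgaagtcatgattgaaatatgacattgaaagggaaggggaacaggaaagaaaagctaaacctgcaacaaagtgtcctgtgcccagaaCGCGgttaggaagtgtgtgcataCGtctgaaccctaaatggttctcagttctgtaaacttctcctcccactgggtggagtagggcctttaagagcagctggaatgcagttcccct
CAV3: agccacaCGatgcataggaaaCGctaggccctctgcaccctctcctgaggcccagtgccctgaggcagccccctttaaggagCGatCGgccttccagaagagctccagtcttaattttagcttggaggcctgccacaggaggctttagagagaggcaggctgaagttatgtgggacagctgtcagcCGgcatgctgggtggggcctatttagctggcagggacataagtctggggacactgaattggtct
The *CAV2* window held 35 CG dinucleotides, more than 94.2% of the 35116 RefSeq windows of that length, whose median was 11. *CAV1* had 18, above 63.2% of windows. *CAV3* had 5 and *CAVIN2* had 4, above 34.3% and 29.3% of windows, so the 4 windows did not share a base composition. By the gencode annotation, the last 15 bases of the *CAV1* window are exonic in *CAV1*. The *CAV2* window lies in an intron of longer *CAV2* transcripts, the *CAV3* window in an intron of *SSUH2* on the other strand, and the *CAVIN2* window in an intron of *CAVIN2-AS1* on the other strand.

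Searched on both strands, the letters CAGGTG, the E-box that SNAIL proteins are known to bind, were in none of the 8 windows of *CAV1*, *CAV2*, *CAV3*, *CAVIN2* and *EHD2* and in 1 of the 6 windows of *PACSIN2*, at position -168 from that start. Over all windows 17.5% held it. The letters GGAATG, the core bound by TEAD factors, were in the *CAVIN2* window, beginning at position -16 near the end of the run above, and in 4 *PACSIN2* windows, against 11.9% of all windows. Those at positions -49, -67 and -92 are the same site in overlapping windows of neighbouring *PACSIN2* starts. The 4 are therefore not separate matches, and their number cannot be set against that share. The AP-1 core TGANTCA was in no member's window, against 6.57% of all. A match is a description of letters, not of a bound site. *CAVIN1* and *CAVIN3* were not among the 6 members with a window.

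Of the 8 members, 6 were called lower in *SNAI1*-KO than in WT libraries and 1, *CAV3*, was called higher, where a call meant an adjusted p below 0.05 in edgeR's quasi-likelihood test and a change of 2 or more on the log2 scale. Over all 19631 genes tested, 14.3% were called lower and 12.6% higher. By adjusted p alone, 7 members were lower and 1 was higher, beside 32.6% and 31.1% of all genes. The median log2 fold change of the members was -5.93, also with *CAVIN3* at its bound, and that of all genes tested was -0.00. Without WT-2 the counts were again 6 lower and 1 higher, beside 12.9% and 13.0% of all genes, and the members' median was -5.91. All 8 members passed the filter on low counts, *CAVIN2* and *CAVIN3* through their WT libraries alone and *CAV3* through its clone libraries alone. The direction of *CAVIN2* and *CAVIN3* was thereby fixed and that of *CAV3* favoured, so the counts are a description. In CS16 against WT, 6 members were called lower and 1 higher, where 15.3% and 11.8% of 18611 genes were. There *EHD2*, with 7, 4 and 12 counts in CS16, also passed the filter through its WT libraries alone. In CS19 against WT, 6 were again lower and 1 higher, where 14.4% and 12.0% of 18935 genes were. The clones share the WT libraries, so these are not independent counts. In bulk RNA, fewer cells that express a gene and less RNA per cell cannot be told apart.

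*CAV1* (chr7:116524994-116561179, plus strand, GRCh38), the caveolin that builds the pits outside muscle, measured 1208, 616 and 1398 CPM in the WT libraries. It was at 25.1, 22.1 and 24.3 CPM in CS16 and at 15.3, 19.0 and 17.2 CPM in CS19. The groups did not overlap, and CS19 lay below CS16. The mean was 1074 ± 408 CPM (SD, n = 3) in WT and 20.5 ± 3.95 CPM (SD, n = 6) in *SNAI1*-KO libraries, a 52.4-fold difference of means. The log2 fold change was -5.71 (SE 0.262, edgeR's quasi-likelihood test, Benjamini-Hochberg adjusted p = 6.77e-09) and -6.00 without WT-2. Per exon length, WT *CAV1* lay above 99.5% of the genes tested in RPKM (CPM per kilobase of exon), and in CS16 and CS19 above 68.3% and 61.7%.

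*CAV2* (chr7:116287380-116508541, plus strand), which needs *CAV1* to leave the Golgi, measured 358, 178 and 409 CPM across WT. CS16 held 20.3, 22.7 and 21.3 CPM, and CS19 held 14.6, 15.5 and 13.8 CPM. As for *CAV1*, WT-2 was the lowest WT library, and every CS19 library was below every CS16 library. The mean was 17.5-fold lower in the clones: it was 315 ± 122 CPM (SD, n = 3) in WT libraries and 18.0 ± 3.85 CPM (SD, n = 6) in clone libraries. The log2 fold change was -4.13 (SE 0.256, edgeR adjusted p = 7.76e-08) and -4.42 without WT-2.

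*CAV3* (chr3:8733802-8841808, plus strand), the caveolin of muscle, went the other way from a level near the floor. It had 12, 5 and 13 counts in WT, 51, 80 and 98 in CS16 and 48, 73 and 101 in CS19. These correspond to 0.592, 0.285 and 0.667 CPM in WT and to 2.18 to 3.90 CPM in the clones, without overlap. The annotated span of *CAV3* overlaps 3 other genes, and strand was not used in counting. Reads from unspliced RNA of those genes therefore cannot be told apart from reads of *CAV3*. The log2 fold change was 2.59 (SE 0.343, edgeR adjusted p = 4.42e-05) and 2.31 without WT-2. In the fit of all libraries *CAV3* passed the filter on low counts through its clone libraries alone, so that p-value is a description. In RPKM, *CAV3* lay above 46.9% of the genes tested in CS16 and 43.1% in CS19, against 16.9% in WT. The skeletal muscle markers *MYOG*, *DES* and *CKM* were below 1 CPM in every library. *DES* had 0 counts in every WT library and 2 to 9 in the clone libraries.

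*CAVIN1* (chr17:42402449-42423256, minus strand), the cavin that the coat requires, measured 649.9, 1195 and 727 CPM across WT, against 11.4, 13.9 and 11.9 CPM for CS16 and 11.6, 11.6 and 11.7 CPM for CS19. Here WT-2 was the highest WT library, the reverse of *CAV1* and *CAV2*. The transcript's GC content was 59.2% for *CAVIN1* and 42.6% and 36.3% for *CAV1* and *CAV2*. The mean was 71.2-fold lower in the clones: it was 857 ± 295 CPM (SD, n = 3) in WT libraries and 12.0 ± 0.923 CPM (SD, n = 6) in clone libraries. The log2 fold change was -6.16 (SE 0.200, edgeR adjusted p = 8.49e-10) and -5.84 without WT-2.

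*CAVIN2* (chr2:191834310-191847088, minus strand), a cavin that binds phosphatidylserine, had 1489, 1099 and 1584 counts in WT, 2, 0 and 4 in CS16 and 1, 2 and 0 in CS19. The WT libraries held 73.4, 62.7 and 81.3 CPM, and the clones lay at or near the floor. With 9 counts in the 6 clone libraries together, the rate was 1150-fold lower, with an exact 95% interval of 605 to 2520 that covers counting error only. The adjusted p of edgeR's test was 2.34e-09. *CAVIN2* passed the filter on low counts through its WT libraries alone, so this value is a description. The antisense gene *CAVIN2-AS1* shares 233 exon bases with *CAVIN2* and had 8 to 12 counts in WT libraries, and read pairs on the shared bases were left out of both counts.

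*CAVIN3* (chr11:6318946-6320532, minus strand), a cavin that binds protein kinase C delta, had 589, 528 and 779 counts in WT and 0 in all 6 clone libraries. The WT level was 29.1, 30.1 and 40.0 CPM. Against the highest per-library floor of 3 counts in the clones, *CAVIN3* was at least 225-fold lower, and edgeR's adjusted p was 4.13e-07. A gene on the other strand shares 35.8% of its exon bases and had 5 to 7 counts in WT libraries and at most 2 in the clones. Without WT-2, edgeR's adjusted p was 2.39e-10 for *CAVIN2* and 5.18e-07 for *CAVIN3*. Like *CAVIN2*, *CAVIN3* passed the filter on low counts through WT libraries alone, so the p-values of both are a description.

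*EHD2* (chr19:47713422-47743134, plus strand), the ATPase of the neck, measured 41.4, 444.5 and 28.7 CPM across WT, against 0.343, 0.191 and 0.477 CPM for CS16 and 0.682, 0.997 and 0.589 CPM for CS19. All WT libraries were above all clone libraries, but WT-2 was 15.5 times WT-3. The log2 fold change was -8.27 (SE 0.848, edgeR adjusted p = 5.4e-06) with all libraries and -5.98 (SE 0.304, adjusted p = 1.73e-08) without WT-2, so the size of the fold rested on that library and the call did not. In WT-2, *EHD2* was 3.69 log2 units above the mean of WT-1 and WT-3, the largest deviation of any member, and the GC content of its transcript was 61.2%. *CAVIN3*, at 66.7% GC, deviated by -0.18.

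*PACSIN2* (chr22:42835412-43015149, minus strand), which also works in other endocytic routes, measured 142, 179.7 and 149 CPM across WT, against 100.3, 109 and 107 CPM for CS16 and 106.5, 109 and 110.5 CPM for CS19. The groups did not overlap, but the mean was only 1.47 times higher in WT. The log2 fold change was -0.55 (SE 0.119, edgeR adjusted p = 0.00165), -0.45 without WT-2, and far from the fold needed for a call. In the fits of 1 clone each it was -0.55 for CS16 (adjusted p = 0.0264) and -0.49 for CS19 (adjusted p = 0.0434). Both passed narrowly: leaving out any library of the clone took the adjusted p to between 0.0991 and 0.126 in CS16 and between 0.147 and 0.18 in CS19, and leaving out WT-3 took it to 0.0622 in CS19. *PACSIN2* shares 3.4% of its exon bases with *ARFGAP3*.

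In WT cells the order by mean RPKM was *CAV1* (278), *CAVIN1* (240.1), *CAV2* (47.9), *EHD2* (44.6), *PACSIN2* (34.5), *CAVIN2* (23.7), *CAVIN3* (21.2) and *CAV3* (0.264). *CAV1* and *CAVIN1* overlapped between libraries, as did *CAVIN2* and *CAVIN3*, and *EHD2*, at 7.47 to 115.6 RPKM, overlapped *CAV2*, *PACSIN2*, *CAVIN2* and *CAVIN3*. *CAV2* and *PACSIN2* also overlapped. Without WT-2 the mean of *EHD2* was 9.12 RPKM, which placed it below *CAVIN3* (22.2) and above *CAV3* (0.323), and the order of the others was the same. *CAVIN3* shares 35.8% of its exon bases with another gene, and read pairs there were left out, while RPKM used the full exon length. Its RPKM may therefore be too low, and its place relative to *CAVIN2* is not settled. In *SNAI1*-KO libraries *PACSIN2* led at 23.5 RPKM, followed by *CAV1* (5.30), *CAVIN1* (3.37), *CAV2* (2.74), *CAV3* (1.61), *EHD2* (0.142) and *CAVIN2* (0.0213), and *CAVIN3* was at 0. There, *CAVIN1* overlapped *CAV2*, *EHD2* overlapped *CAVIN2* and *CAVIN2* overlapped *CAVIN3*, and the other neighbours in that order did not overlap. The clones thus held low but countable RNA of *CAV1*, *CAV2* and *CAVIN1*, and of the cavins *CAVIN2* and *CAVIN3* almost none or none was detectable at this depth.

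**Figure D1:**
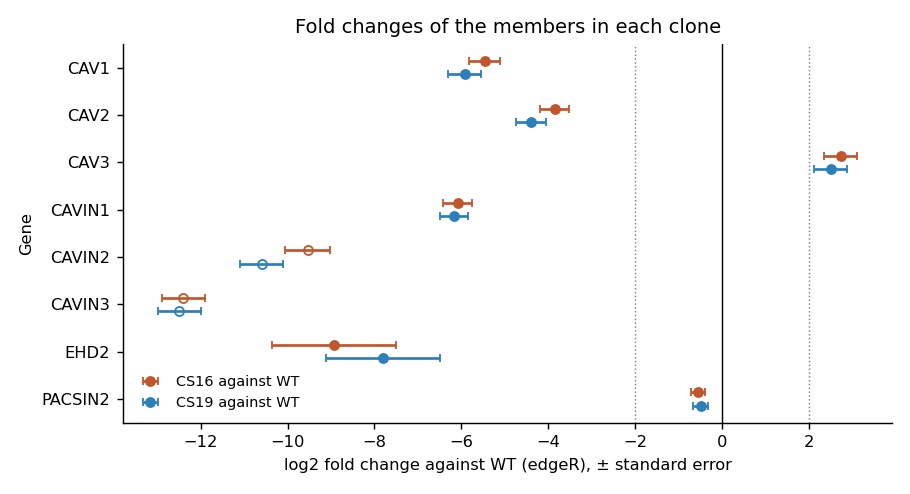
Log2 fold change of each member against WT in CS16 and in CS19 (points, with bars for the standard error from edgeR, dotted lines at the fold needed for a call). Open points mark *CAVIN2* and *CAVIN3*, whose clone counts were 0 to 4 and whose fitted values depend on the prior count. The 6 genes called lower lie left of the lower line in both clones, *CAV3* lies right of the upper line, and *PACSIN2* lies near 0.

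The clones were close to each other. In CS16 against CS19, 0 members were called in either direction by edgeR, beside 0.496% of 17538 genes lower and 0.633% higher. DESeq2 also called 0, and 3 members had an unadjusted p below 0.05 in edgeR. By adjusted p alone, *CAV1* and *CAV2* were higher in CS16, where 14.7% of all genes were higher and 12.7% lower by that rule. *CAV1* was higher by 0.47 on the log2 scale (SE 0.0965, edgeR adjusted p = 0.00277) and *CAV2* by 0.55 (SE 0.0892, adjusted p = 0.000471), and for both every CS16 library exceeded every CS19 library. In a shared fit of the 3 groups, which borrows the spread of the WT libraries, the adjusted p was 0.515 and 0.401. *EHD2* was lower in every CS16 library than in every CS19 library, with a log2 fold change of -1.11 that did not pass (adjusted p = 0.0635). *CAV3*, *CAVIN1* and *PACSIN2* differed by 0.23, 0.08 and -0.05, with adjusted p of 0.482, 0.609 and 0.583, and *CAVIN2* and *CAVIN3* were too low to be tested between the clones.

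Against WT alone, 28.6% of all genes were lower and 27.0% higher by adjusted p in CS16, and 26.6% and 26.3% in CS19. By that rule 7 members were lower and 1 higher in each clone. *CAV1* was at -5.46 in CS16 and -5.92 in CS19, *CAV2* at -3.84 and -4.39, *CAVIN1* at -6.08 and -6.16, and *CAV3* at 2.73 and 2.50. *EHD2* was at -8.92 in CS16 and -7.80 in CS19, and at -6.65 and -5.53 without WT-2.

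The ratio of one member to another within a library shows whether they moved by the same factor. The 4 ratios were chosen after the values were seen, so they are a description with no test. The *CAV1* to *CAV2* ratio in RPKM was 5.75, 5.90 and 5.81 in WT, 2.11, 1.65 and 1.94 in CS16 and 1.79, 2.09 and 2.13 in CS19. WT-2 did not stand apart here, and every WT ratio was above every clone ratio. The mean went from 5.82 ± 0.0780 (SD, n = 3) to 1.95 ± 0.197 (SD, n = 6), and the log2 ratio differed by -1.58. The *CAV1* to *CAVIN1* ratio overlapped between groups, at 1.72, 0.476 and 1.78 in WT and 1.21 to 2.03 in the clones. The low value was WT-2: the log2 ratio differed by 0.46 with it and by -0.17 without it. The *CAV2* to *CAVIN1* ratio went from 0.0806 to 0.306 in WT to 0.638 to 0.971 in the clones, without overlap, and the log2 ratio differed by 2.04 with WT-2 and by 1.40 without it. *CAV1* to *CAV3*, the non-muscle to the muscle caveolin, was 1030 to 1090 in WT and 2.63 to 5.06 in the clones, as the opposite directions of the 2 genes fix, and rested on 5 to 13 *CAV3* counts in each WT library.

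**Figure D2:**
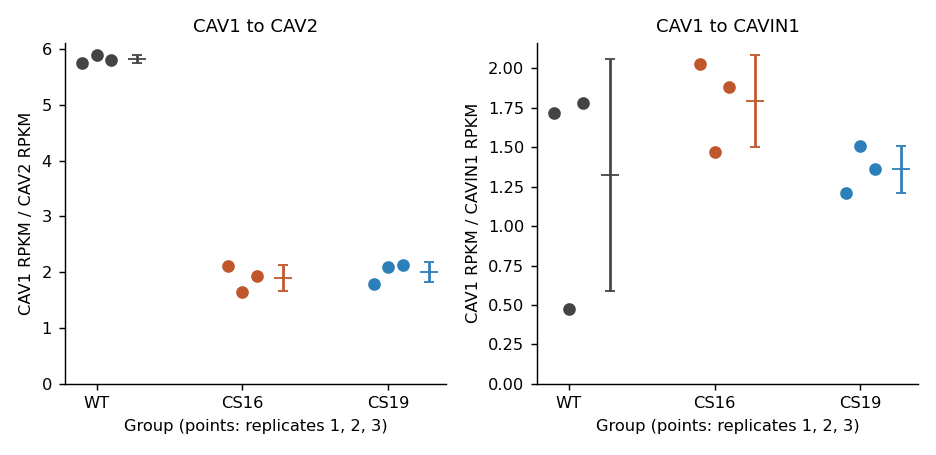
Ratio of *CAV1* to *CAV2* (left) and of *CAV1* to *CAVIN1* (right) in RPKM, 1 point per library in the order of replicates, with the group mean and SD beside them. The *CAV1* to *CAV2* ratio is 5.75 to 5.90 in WT and 1.65 to 2.13 in the clones, and the *CAV1* to *CAVIN1* ratio overlaps between groups, with WT-2 at 0.476.

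Across the 9 libraries, log2 CPM of *CAV1* had a Pearson correlation of 0.997 with *CAV2*, 0.992 with *CAVIN3*, 0.991 with *CAVIN2*, 0.980 with *CAVIN1*, 0.901 with *EHD2*, 0.896 with *PACSIN2* and -0.917 with *CAV3*. These are descriptions, since the points fall into WT and clone libraries and 2036 of 19623 other genes exceeded 0.95. The genes with the pattern most like *CAV1* were *NCEH1* (0.999), *ANXA2* (0.999), *SMURF2* (0.999), *PRR11* (0.999) and *STK38* (0.999). *ANXA2*, a membrane-binding annexin, averaged 2000 CPM for WT, 165 for CS16 and 143 for CS19. *NCEH1*, a cholesterol ester hydrolase, went from 281 CPM to 15.9 and 13.9 CPM. All 5 showed the order WT, CS16, CS19 in their mean levels, as *CAV1* did. Their selection by correlation with *CAV1* favours this order, so it is no finding of its own.

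*CAV1* and *CAV2* lie side by side on chromosome 7, so the genes around them were examined. Within 500 kb of *CAV1* there were 23 other genes, of which 14 had a count and 10 were tested in *SNAI1*-KO against WT. Of these, 4 were called lower, 0 higher, 3 more passed by p only and 3 did not pass. For scale, the calls in this fit took in 14.3% of all genes as lower and 12.6% as higher. By adjusted p alone the shares were 32.6% and 31.1%. Without WT-2, 5 were called lower, 4 passed by p only and 1 did not pass, where 12.9% of all genes were called lower and 13.0% higher. The protein-coding neighbours had smaller log2 fold changes than the caveolins. *TES*, a focal adhesion protein gene whose start lies at -314.5 kb from that of *CAV1*, had a log2 fold change of -0.13 (SE 0.233, edgeR adjusted p = 0.646), with 148, 139 and 131 CPM on average in WT, CS16 and CS19. *CAPZA2*, an actin-capping subunit gene at 286.1 kb, had -0.16 (SE 0.288, adjusted p = 0.655). Without WT-2, *TES* and *CAPZA2* passed by p only, at -0.44 (adjusted p = 0.0014) and -0.53 (adjusted p = 0.00265). *MET*, the receptor of hepatocyte growth factor, lies between *CAV1* and *CAPZA2* and had -1.95 (SE 0.167, adjusted p = 1.22e-06), with 455, 133 and 103 CPM on average. It was called lower without WT-2, at -2.11 (adjusted p = 8.99e-08). *ST7-AS1*, at 4 to 18 counts a library, had -0.33 (adjusted p = 0.514).

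The 4 neighbours called lower were genes without a symbol on the minus strand, opposite to *CAV1* and *CAV2*. All 4 passed the filter on low counts through their WT libraries alone, so their adjusted p-values are given as a description. The start of ENSG00000237813 lies 273 bases before the RefSeq start of *CAV2* and faces it across the CG-rich window shown above. It had 125, 86 and 134 counts in WT and 1, 0, 0, 0, 0 and 1 in the clones (adjusted p = 3.01e-08). ENSG00000237870 faces the upstream annotated start of *CAV2* across 646 bases and had a mean of 7.30 CPM in WT and 0 counts in every clone library (adjusted p = 2.92e-06). ENSG00000235427 lies inside *CAV1* on the other strand and had 34, 45 and 15 counts in WT and 1 in the 6 clone libraries together (adjusted p = 2.77e-06). The last, ENSG00000243243, had 12 to 43 counts in WT and 1 to 10 in the clones (adjusted p = 0.000874). Strand was not used in counting, so for the 3 that overlap the annotated span of *CAV1* or *CAV2*, reads from unspliced RNA of those genes cannot be told apart from their own. ENSG00000237870 overlaps neither span.

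**Figure D3:**
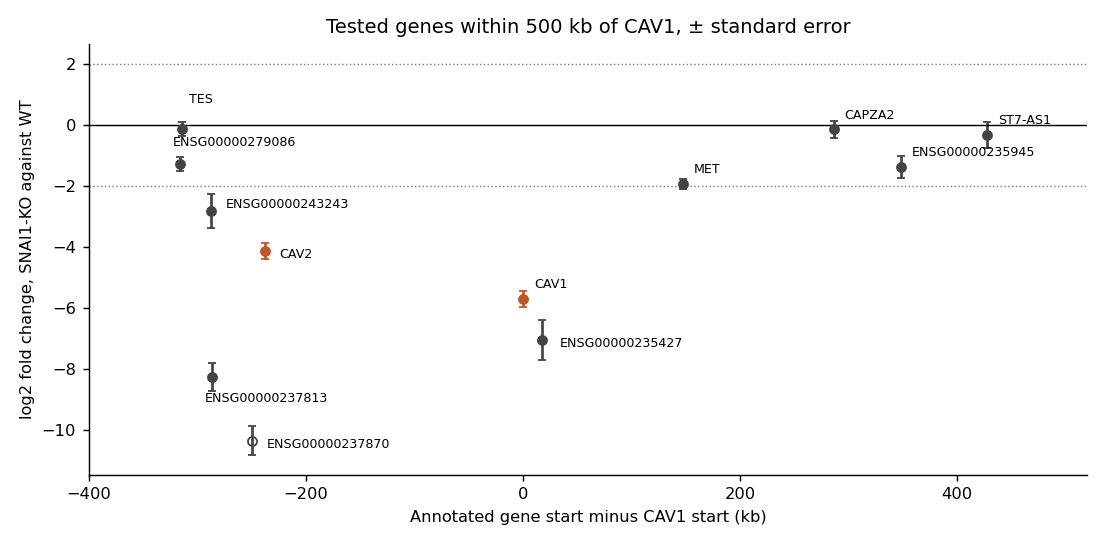
Log2 fold change, *SNAI1*-KO against WT, of the 12 tested genes within 500 kb of *CAV1*, placed by the distance of their lowest annotated coordinate from that of *CAV1* in kb (bars for the standard error, orange for *CAV1* and *CAV2*, open for a gene at 0 in all clone libraries, dotted lines at the fold needed for a call). For a minus-strand gene this coordinate is its 3′ end, so its point does not mark its start site. *TES* and *CAPZA2* lie near 0, *MET* lies at -1.95, and the points with the lowest values are *CAV1*, *CAV2* and minus-strand genes beside them.

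Further genes of caveolae, relatives of the members and caveolar cargo or signalling partners, were followed as a list of their own. Of 25 such partners, 23 were tested in *SNAI1*-KO against WT. Called lower were 5 and called higher was 1, where 14.3% and 12.6% of all genes were. The median log2 fold change was -0.93, against -0.00 for all genes. Without WT-2 the counts were 4 and 2 of 24, where 12.9% and 13.0% of all genes were called, and the median was -0.23. *AQP1*, a water channel found in caveolae, had a log2 fold change of -5.67 (SE 0.306, adjusted p = 2.5e-08), with 351 to 550 counts in WT and 5 to 17 in the clones. *EHD1*, the *EHD2* relative of the recycling endosome, had -3.53 (SE 0.293, adjusted p = 9.24e-07) and -2.84 without WT-2. *PRKCA*, protein kinase C alpha, had -2.83 and *ROR1*, a receptor that scaffolds *CAVIN1* with *CAV1*, had -2.18, with adjusted p of 1.25e-07 and 3.25e-08. *PTGIS*, prostacyclin synthase, was called higher, with 0, 2 and 1 counts in WT and 16 to 65 in the clones.

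Other relatives, chosen for their family after their values were seen, had smaller changes than most members, or changes of opposite sign. *CAVIN4*, the muscle cavin, was higher by 1.38 (SE 0.205, adjusted p = 0.000106), in the same direction as *CAV3*. *EHD3* was higher by 1.96 (adjusted p = 3.94e-05) and by 2.31 without WT-2, which made it a call, while *EHD4* had -2.07 (adjusted p = 5.3e-06) and -1.67 without WT-2, no longer a call. The flotillins, which mark membrane domains of another kind, had -1.88 for *FLOT1* and -0.93 for *FLOT2*, and without WT-2 *FLOT2* had -0.30. *PACSIN3* had -0.54 (adjusted p = 0.0387) and -0.15 without WT-2 (adjusted p = 0.214).

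The machinery of clathrin-coated pits, the other main route of uptake, was measured as a comparison. Of its 29 genes, all 29 were tested. EdgeR called 3 lower and 1 higher, beside the same 14.3% and 12.6% of all genes, around a median log2 fold change of -0.61. Without WT-2, it called 1 lower and 1 higher, beside 12.9% and 13.0% of all genes, around a median of -0.41, against 0.036 for all genes. The clathrin heavy chain *CLTC* had -0.67 (adjusted p = 0.00187), with means of 1140, 730 and 703 CPM in WT, CS16 and CS19. *BIN1*, an amphiphysin, had -2.75 (adjusted p = 4.19e-07), and *AAK1*, a kinase of the adaptor complex, had -2.07 (adjusted p = 3.04e-05) and -1.58 without WT-2. The adaptor *EPN1* had -2.25 (adjusted p = 0.0019) and -0.71 without WT-2, which held 7426 counts where the other WT libraries held 1220 and 1280. *AMPH*, amphiphysin, had 0 counts in every WT library and 252 to 436 in the clone libraries. The median of the members, -5.93, was lower than that of either list, with 6 members called lower and 1 higher. *CAVIN2*, *CAVIN3* and *CAV3* passed the filter through the libraries of a single group, and the members were chosen with earlier results known. This is therefore a description, and the difference between lists was not tested.

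Most markers of other cells rich in caveolae were near the floor. Of 12 such genes of endothelial, fat and muscle cells, 10 were below 1 CPM in every WT library, and *ADIPOQ* was at 0 in all 9 libraries. Their sum was 7.44 to 17.4 CPM for WT, 3.43 to 4.58 for CS16 and 3.47 to 5.50 for CS19. *PECAM1*, an endothelial adhesion gene, was the exception among endothelial markers, with a mean of 5.66 CPM in WT and at most 0.182 CPM in the clones, while *CDH5* had 0 counts in every WT library. The smooth muscle gene *MYH11* averaged 5.05 CPM for WT, 1.45 for CS16 and 2.17 for CS19, but WT-2 held 185 counts and the other WT libraries 56 and 36, and without it the log2 fold change was -0.35 (edgeR adjusted p = 0.349). The fat cell gene *PLIN1* was higher in every clone library than in every WT library, with means of 0.261, 1.52 and 1.40 CPM for WT, CS16 and CS19. So was the muscle gene *DES*, at 0 CPM in WT and at most 0.43 CPM in the clones. Their part in the members' values was not tested.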

How the data were processed

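RNA of 3 libraries each labelled as WT, CS16 and CS19 MDA-MB-231 cells was depleted of ribosomal RNA and sequenced at both ends. Per the labels, the authors trimmed reads with Trimmomatic 0.36, aligned them with STAR 2.7.2b to GRCh38.p13 and counted with featureCounts (Subread 2.0.0). The deposited values were raw counts of read pairs per gencode release 38 gene, with a mapping quality of at least 30 and without strand. By the counter's default, pairs on exons of several genes were left out, and the deposited exon length served for RPKM. No molecular identifiers were used, so intervals and floors cover counting error only.

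Counts were tested in R 4.3.3 with edgeR 4.0.16 (filterByExpr, TMM, quasi-likelihood test, Benjamini-Hochberg adjustment over all genes tested), each comparison in its own fit. Log2 CPM used a prior count of 2. DESeq2 1.42.0 was an alternative, beside RLE factors, other filters and fold limits, a replicate block, a shared fit, leaving out the 100 highest genes and leaving out each library. Exact intervals used scipy 1.17.1. The fits were tested on simulated counts with 200 changed genes. GC content came from the longest gencode release 44 transcript, available for 99.79% of genes.

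Members and gene lists were chosen with earlier results of these data known. Named were all members, up to 4 called list genes per direction, markers at 0 or without overlap, genes within 500 kb of *CAV1* and the 5 genes most correlated with *CAV1*. *EHD3*, *EHD4*, *CAVIN4*, *FLOT1*, *FLOT2*, *PACSIN3* and *CLTC* were named after their values were seen. One gene of each breast marker list is not reported here and was left out of the list's counts and sums.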

Additional observations from a re-analysis of the deposited data

Results flagged for a closer look

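*CAV1* and *CAV2* differed between the clones: both were higher in CS16 than in CS19, by 0.47 and 0.55 on the log2 scale, by edgeR's quasi-likelihood test of CS16 against CS19. The RPKM ratio of *CAV1* to *CAV2* was 1.90 ± 0.231 (SD, n = 3) in CS16 and 2.00 ± 0.188 (SD, n = 3) in CS19, so their ratio overlapped between the clones. One clone library lay apart from the rest for *CAVIN1*: CS16-2, at 13.9 CPM, was the highest of the 6 clone libraries, and its gap to the nearest was 0.792 of their whole range of log2 CPM. The limit for naming such a library is one that chance alone passes in about 1 in 20 groups, and 6 members were examined.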

How the results depend on the processing

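The counts of members called lower and higher in the 3 comparisons with WT stayed within 5 to 7 and at 1 under every alternative run, and leaving out each library gave 6 and 1 throughout. DESeq2 gave 5 lower, because it returned no adjusted p for *EHD2*, and 6 without WT-2, a setting chosen after seeing the data like the list and neighbour counts without WT-2. Between the clones the count of members higher went from 0 to 2 without a fold-change cut-off (*CAV1* and *CAV2*), and leaving out each library gave 0 in both directions. With the replicate number as a replicate block, members called lower and higher remained 6 and 1 in number in all comparisons with WT, and *PACSIN2* no longer passed in CS16 (adjusted p = 0.084) or CS19 (adjusted p = 0.1). The numbers did not pair the libraries: correlations of same-numbered deviations ran from -0.206 to 0.19. Without a filter *PACSIN2* also did not pass (0.17 and 0.223). No member's log2 fold change changed sign under any alternative run. Among fitted values near the floor, *CAVIN2* ran from -10.34 without CS16-3 to -8.98 without CS16-2 in CS16 and from -11.45 without CS19-2 to -9.90 without CS19-3 in CS19. The *CAV1* to *CAV2* log2 ratio ran from -1.61 to -1.54 with 1 library left out. Depth limits *CAVIN2*, *CAVIN3* and *EHD2* in the clones and *CAV3* in WT.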
